A study of Mus musculus with 60 samples.

Results

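The genes of CTCF and of the cohesin machinery were followed through the peak lists of mouse dorsal root ganglia after nerve or spinal surgery. They are 10 named genes out of 21883 protein-coding genes: Ctcf, the ring subunit genes Smc1a, Smc3 and Rad21, the ring-bound subunit genes Stag1 and Stag2, the loader gene Nipbl, and the regulator genes Wapl, Pds5a and Pds5b. They were picked by name, by a rule that uses no measured value, and all 10 were found in the gene table. Peaks were assigned to a gene when they overlapped the gene body or the 10 kb on either side of it.

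The ganglia were those of lumbar levels L4 to L6, which hold the sensory neurons whose axons run in the sciatic nerve, from C57BL/6 mice of 6 to 8 weeks, taken 24 hours after surgery. There were 4 groups, made of 2 axotomies and a control operation for each: sciatic nerve axotomy (SNA) with its sham nerve surgery (Sham), and axotomy of the spinal dorsal columns (DCA) with laminectomy (Lam), the removal of vertebral bone without axotomy. Each surgery had 2 chromatin immunoprecipitation (ChIP-seq) samples for each of the histone marks H3K9ac, H3K27ac and H3K27me3, every sample a pool of 10 mice with its own input, and 3 ATAC-seq samples of 1 mouse each. The 60 samples are 24 ChIP samples, 24 inputs and 12 ATAC samples. The authors deposited 1 list per assay and surgery, 16 in all, in which the replicates are pooled, so no value below has a replicate error and no difference between surgeries has a test. Intervals on shares of peaks are 95% Wilson intervals and cover counting error only. The ganglia are whole tissue and hold neurons, glia and other cells, and a list cannot tell fewer cells of a type from less signal per cell.

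CTCF is a zinc finger protein that binds DNA at sites whose sequence has an orientation. Cohesin is a ring-shaped complex that extrudes loops of chromatin and can be halted at such a site. NIPBL loads the ring, WAPL releases it with the help of the PDS5 proteins, and the STAG proteins bind the closed ring and contact CTCF. In cells that no longer divide, such as sensory neurons, the complex is known for its part in folding the genome and in linking enhancers to promoters, while in dividing cells it also holds sister chromatids together. H3K9ac and H3K27ac are marks of active promoters and enhancers, H3K27me3 is a mark of Polycomb repression, and ATAC-seq reads the DNA that a transposase can reach.

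The promoters are shown first, because 9 of the 10 ATAC regions within 1 kb of a start were found after every surgery. The RefSeq promoter table for GRCm38.p6 held 7 of the 10 genes: Ctcf, Smc1a, Smc3, Stag1, Wapl, Pds5a and Pds5b. Rad21, Stag2 and Nipbl are named only, and for them both ends of the gene were used in place of a start. The 250 bases before the start of 4 genes follow, in the direction of transcription, with the motifs found by search in capitals. The motifs in these 4 are the GC box GGGCGG, the CCAAT box CCAAT, the NRF1 site GCGCANGCG and the CTCF core AGGNGGC, each searched on both strands, so a motif on the other strand appears as its reverse complement. Ctcf was chosen as the gene of the binding protein itself, Smc1a for its lower GC content, Wapl for its pair of CCAAT boxes with an NRF1 site, and Pds5a for the highest GC content of the 7.
Ctcf, chr8:105636288-105636537, plus strand: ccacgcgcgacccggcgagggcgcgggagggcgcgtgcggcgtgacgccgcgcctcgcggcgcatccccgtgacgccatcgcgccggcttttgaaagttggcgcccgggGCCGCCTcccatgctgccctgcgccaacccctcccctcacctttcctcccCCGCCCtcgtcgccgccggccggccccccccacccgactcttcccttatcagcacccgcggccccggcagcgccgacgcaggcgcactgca
Smc1a, chrX:152016178-152016427, plus strand: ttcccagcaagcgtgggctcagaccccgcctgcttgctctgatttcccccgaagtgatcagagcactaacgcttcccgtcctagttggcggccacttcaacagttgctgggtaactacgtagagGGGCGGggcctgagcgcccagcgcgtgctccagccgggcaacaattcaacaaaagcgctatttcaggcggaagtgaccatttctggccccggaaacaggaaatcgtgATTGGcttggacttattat
Wapl, chr14:34673678-34673927, plus strand: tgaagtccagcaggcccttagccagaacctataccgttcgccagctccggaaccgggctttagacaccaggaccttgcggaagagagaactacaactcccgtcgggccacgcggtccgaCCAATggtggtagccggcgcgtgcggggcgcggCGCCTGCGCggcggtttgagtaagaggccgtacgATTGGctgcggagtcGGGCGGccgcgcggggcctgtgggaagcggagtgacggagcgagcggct
Pds5a, chr5:65698237-65698486, minus strand: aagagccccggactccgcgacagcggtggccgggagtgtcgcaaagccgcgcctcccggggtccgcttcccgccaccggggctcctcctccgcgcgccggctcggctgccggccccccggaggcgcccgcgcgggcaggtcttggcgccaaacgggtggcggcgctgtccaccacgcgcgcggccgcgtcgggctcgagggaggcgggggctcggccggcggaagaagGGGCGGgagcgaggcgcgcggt

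These are GC-rich promoters. The median GC content of the 7 was 71.2%, with a median of 32 CpG pairs in 250 bases, against 55.6% and 10 over all 21262 promoters of the table. Pds5a was highest with 80.4% and 44 pairs and Smc1a lowest with 56.8% and 16 pairs. A GC box stood in 7 of the 7, against 42.6% of all promoters, a CCAAT box in 4 (Smc1a, Stag1, Wapl and Pds5b) against 35.4%, and an NRF1 site in 3 (Stag1, Wapl and Pds5b) against 7.08%. The CTCF core, the letters shared by many binding sites of the protein, was found in Ctcf itself and in Pds5b, and in 28.7% of all promoters. None of the 7 held the ETS site CCGGAAG (8.98% of promoters), the cAMP response element TGACGTCA (1.92%), the AP-1 site TGANTCA (6.13%), the YY1 site AAGATGGCG (0.72%) or the TATA box TATAAA (11.6%). A match is only a match of letters, and other sites may stand outside this window. In all 4 ATAC lists, peaks covered 250 of the 250 bases of each of the 7 promoters.

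An ATAC peak lay within 1 kb of the start in all 4 lists for 8 of the 10 genes, where 62.1% of all protein-coding genes had one. List by list it was the same 8 genes, where 68.8% of all genes had a peak after Sham, 70.7% after SNA, 69.0% after Lam and 70.1% after DCA. The other 2, Rad21 and Nipbl, have no known start here and had none within 1 kb of either gene end in any list. Of all genes, 23.0% had no such peak. For the 7 genes with a known start, the strongest such peak covered the start in 28 of 28 cases, and its summit lay a median of 109 bp from it; over all genes with a known start the peak covered it in 87.2% of cases, at a median of 93 bp. The peaks stood high in their own lists when ranked by −log10 p, the significance that the authors' peak caller gave each peak. The median percentile, over the 8 genes, was 97.4 in the Sham list, 97.7 in SNA, 97.2 in Lam and 97.7 in DCA.

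**Figure D1:**
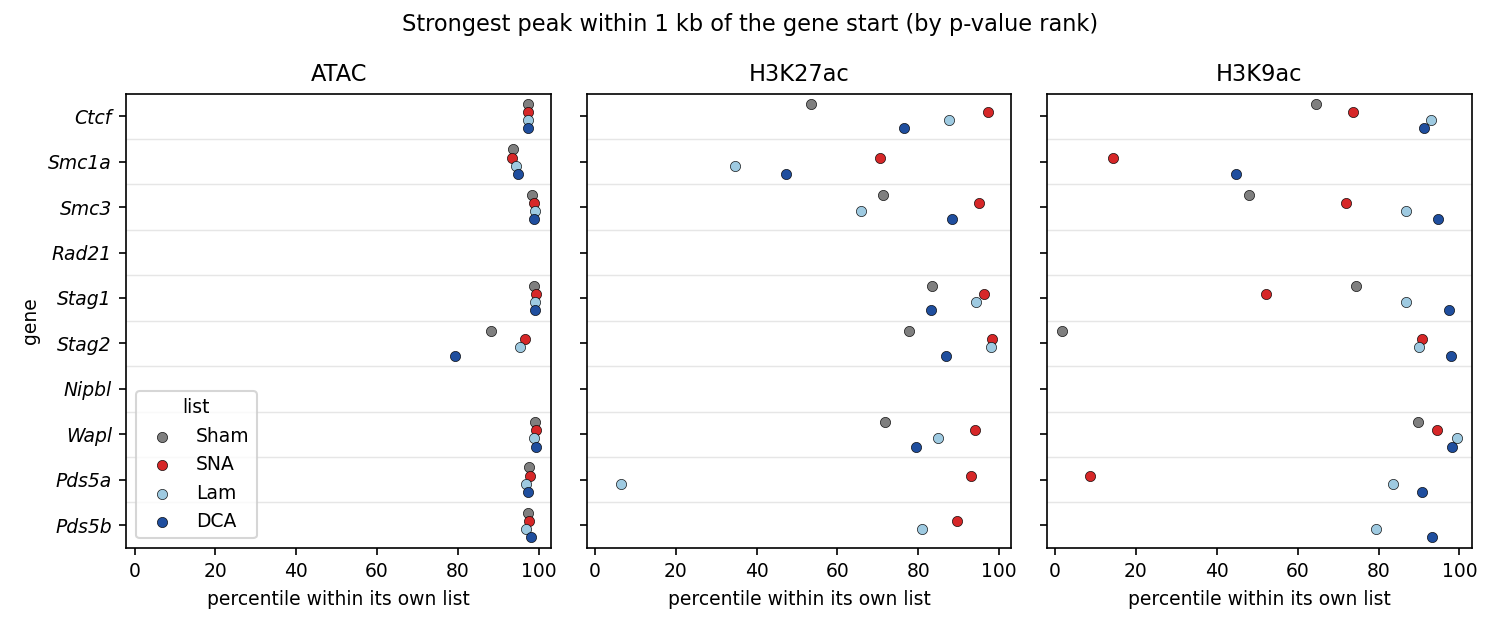
Percentile of the strongest peak within 1 kb of each gene's start within its own list (x axis, percent, ranked by −log10 p), by gene (y axis) and surgery (colour), for ATAC, H3K27ac and H3K9ac. ATAC points crowd between 93.4 and 99.3 except at Stag2, acetylation points spread widely, and Rad21 and Nipbl have no point because no peak lay within 1 kb of either gene end.

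Ctcf, at chr8:105636474-105682922, showed how alike the ATAC lists were at a start. Its start peak had a −log10 p of 29.8 after Sham, 36.1 after SNA, 30.5 after Lam and 31.6 after DCA, at percentiles between 97.2 and 97.4 of the 4 lists. The fold enrichment, the authors' ratio of a peak over background, was 4.01, 4.27, 3.94 and 3.85 in that order. These values belong to separate lists and give no change between surgeries. The summits lay 22 to 137 bp before the start, a narrow span against a peak width of 1674 to 2094 bp.

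Among the ring subunit genes, Smc3 (chr19:53600396-53645831), whose product pairs with that of Smc1a, had the stronger start peaks. Their −log10 p was 41.7 after Sham, 63.5 after SNA, 62.4 after Lam and 56.3 after DCA. At Smc1a (chrX:152016428-152061973), an X-linked gene with the gene Ribc1 close by, the values were 12.9, 14.5, 14.0 and 16.6 in the same order, at percentiles of 93.4 to 94.8. Both genes thus stood at percentile 93.4 or above in every ATAC list, with Smc1a below Smc3 in each.

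Rad21 (chr15:51962604-51993538), the gene of the kleisin that closes the ring, had no ATAC peak within 1 kb of either end in any list. It held instead a peak inside the gene, which was the strongest at any of the 10 genes in the Sham and SNA lists of ATAC. It had a −log10 p of 78.9 after Sham, 91.9 after SNA, 47.2 after Lam and 52.1 after DCA, at percentiles of 98.6 to 99.5, and ended between 1333 and 1497 bp short of the upper end of the gene. The 4 intervals overlapped one another, and the predicted gene Gm52217 has an end under them. Nipbl (chr15:8289824-8465315) was alike in layout, with its strongest ATAC peak 19708 to 20039 bp inside the upper end and under an end of the gene LOC102634078. Its −log10 p was 18.0 after Sham, 33.0 after SNA, 15.1 after Lam and 21.8 after DCA, at percentiles of 94.8 to 97.0. So all 10 genes had an ATAC peak in every list. The starts of Rad21 and Nipbl were not known, and an outer gene end may not be the start in use. Whether their inner peaks lie at a start could not be told, so the 2 genes are not shown to lack a start peak. The share of all genes with any ATAC peak in the gene or its flanks in all 4 lists was 79.3%.

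The STAG genes, whose products are alternative subunits of the ring, differed from each other. Stag1 (chr9:100597709-100958544) had start peaks with a −log10 p of 51.0 after Sham, 84.1 after SNA, 60.1 after Lam and 63.1 after DCA. Stag2 (chrX:42149297-42277186) had the weakest of the 8 in the Sham and DCA lists, with 8.51 and 6.95, and stood at 28.6 in SNA and 17.3 in Lam. The value in DCA is that of a peak inside the gene, at chrX:42149699-42150626, while the DCA peak over the lower end had 4.39. The lower end was covered by a peak in the Sham, SNA and DCA lists and not in that of Lam. Its percentiles, 88.3 after Sham, 96.5 after SNA, 95.4 after Lam and 79.2 after DCA, spanned more than those of any other gene in the ATAC start peaks.

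The genes of cohesin release had start peaks of steady rank. Wapl (chr14:34672379-34747983) reached a −log10 p of 58.1 after Sham, 88.7 after SNA, 55.7 after Lam and 68.0 after DCA, at percentiles of 98.9 to 99.3. Pds5a (chr5:65605719-65698236) had 33.8, 44.7, 26.3 and 32.6 in that order, and Pds5b (chr5:150673713-150810669) 29.7, 39.1, 25.8 and 42.4. Pds5b had a second strong ATAC peak in its flank, at chr5:150664819-150666139 in the Sham list and under an end of the neighbouring gene N4bp2l2, with 40.9, 54.0, 41.7 and 28.9. That flank also held the strongest H3K9ac peak of its window in every list, so counts for Pds5b include peaks at an end of another gene. SNA gave the largest −log10 p at the start, or for Rad21 and Nipbl at the strongest peak, in 8 of the 10 genes, all but Smc1a and Pds5b, for which it was DCA. That order is not a comparison of signal, since −log10 p moves with the depth of a list. The share of all genes with their largest value in SNA was not counted. Over the whole ATAC lists the median −log10 p was also highest in SNA, at 4.95, against 4.47 in Sham, 4.28 in Lam and 4.72 in DCA. The background pile-up estimated from the ATAC lists was 16.2 reads after Sham, 17.3 after SNA, 17.2 after Lam and 18.4 after DCA, and its part in the order was not tested.

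Acetylation was found at fewer of these starts. Within 1 kb of the start in all 4 lists, 5 of the 10 genes had an H3K9ac peak, where 43.2% of all genes did, and 5 had an H3K27ac peak, where 32.7% did. The 5 were the same for both marks: Ctcf, Smc3, Stag1, Stag2 and Wapl. Rad21 and Nipbl had none within 1 kb of an end in any list, which held for 38.1% of all genes for H3K9ac and 42.9% for H3K27ac. Their starts were not known, and both had acetylation at the inner ATAC peak, as given below. The other 3 genes, Smc1a, Pds5a and Pds5b, had one in some lists only. List by list, H3K9ac marked 5 starts after Sham (50.1% of all genes), 7 after SNA (51.4%), 7 after Lam (51.1%) and 8 after DCA (59.9%). H3K27ac marked 5 after Sham (40.4%), 8 after SNA (51.6%), 8 after Lam (51.3%) and 6 after DCA (43.3%).

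For the 7 genes with a known start, the summit of the strongest H3K27ac start peak lay a median of 608 bp from the start and the peak covered the start in 3 of 23 cases, or 13.0%, against a median of 346 bp and 35.6% over all genes. The H3K9ac summit lay a median of 587 bp away and the peak covered the start in 6 of 23 cases, or 26.1%, against 311 bp and 45.7%. Smc3 was the gene whose acetylation covered the start most often, with H3K9ac after Sham, Lam and DCA and H3K27ac after SNA, Lam and DCA. At Ctcf the summits of the strongest acetylation peaks stood 587 to 717 bp after the start in all 8 lists of the 2 marks, while the ATAC summits stood just before it. When a peak had to cover the start itself, no gene kept an H3K9ac or an H3K27ac peak in all 4 lists, and 7 of the 10 kept an ATAC peak. The share of all genes that kept one in all 4 lists was not counted, so these counts are not shown to be particular to the 10 genes.

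Ctcf start peaks of H3K9ac had a −log10 p of 4.81 after Sham, 6.06 after SNA, 10.4 after Lam and 17.1 after DCA. For H3K27ac the values were 8.73, 19.3, 15.5 and 10.6. The DCA peak of H3K9ac was 3182 bp wide and took in the start, while the strongest peaks of the other 3 lists were 374 to 532 bp wide and did not. The Lam list held another, weaker peak over the start, with 6.79. The highest percentile was reached in Lam for H3K9ac, at 92.9, and in SNA for H3K27ac, at 97.3, so the order of the surgeries differed between the 2 marks.

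Stag2 gave the widest span of any start peak. Its H3K9ac peak, at the lower end, had a −log10 p of 2.26 after Sham, 8.95 after SNA, 9.40 after Lam and 27.03 after DCA, which placed it at percentile 1.67 of the Sham list and at 90.7, 90.1 and 97.8 of the others. Its H3K27ac peak was at 13.9, 21.2, 31.9 and 13.8, percentiles 77.7 to 98.1. Wapl, by contrast, was high in all 4 H3K9ac lists, with 6.94, 10.6, 17.3 and 27.8 at percentiles 89.8 to 99.4. The last of these covers the start and runs on after it, and the DCA peak that overlaps the other 3, before the start, had 18.6. The background pile-up estimated from the H3K9ac lists ran in the same order, 1.68 reads after Sham, 2.08 after SNA, 3.04 after Lam and 5.20 after DCA. That level fitted 49.7% of the peaks used after Sham and 46.6% after SNA. It fitted only 12.8% after Lam and 21.7% after DCA, so it is a rough figure, and its part in these values was not tested.

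The 3 genes with partial acetylation each had no start peak of either mark in the Sham lists. Smc1a had an H3K9ac start peak in the SNA and DCA lists and in neither control list, with a −log10 p of 3.50 and 6.82, at percentiles 14.3 and 44.8. Its strongest H3K27ac start peaks in SNA, Lam and DCA had 8.36, 6.76 and 7.25. SNA and Lam each held a peak on both sides of the start, the weaker one with 6.71 before it in SNA and 6.04 after it in Lam. The DCA peak lay before the start. Pds5a had H3K9ac in SNA at 3.01, in Lam at 8.10 and in DCA at 16.7, and H3K27ac in SNA at 14.9 and in Lam at 4.56. Pds5b had H3K9ac in Lam at 7.41 and in DCA at 19.3, and H3K27ac in SNA at 12.9 and in Lam at 12.9. An H3K9ac start peak in SNA and not in Sham was therefore seen in 2 of 10 genes (5.19% of all genes), in DCA and not in Lam in 1 (9.44%), and in Lam and not in Sham in 2 (5.32%). The reverse patterns held for 0 genes each, against 3.84% for Sham without SNA, 0.571% for Lam without DCA and 4.36% for Sham without Lam. For H3K27ac the counts were 3 (13.6%) for SNA without Sham, 0 (2.39%) for DCA without Lam and 3 (13.1%) for Lam without Sham. In reverse, Pds5a and Pds5b had one in Lam and not in DCA (10.4% of all genes), and 0 had one in Sham without SNA (2.39%) or without Lam (2.13%). The comparisons with Sham share that list, and 3 of 10 rests on the same 3 genes in both, Smc1a, Pds5a and Pds5b, so the absence from Sham fixes both counts.

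Peaks over the whole gene and its flanks were then counted in each list. The windows of the 10 genes were long, with a median of 104 kb against 37.2 kb for all genes, from 50.9 kb for Rad21 to 381 kb for Stag1. The 16 lists held 456 peaks in them, of which 194 were ATAC peaks, 112 H3K27ac, 100 H3K9ac and 50 H3K27me3 peaks. A peak in the window in all 4 lists was held by 8 genes for H3K9ac (58.6% of all genes), all but Smc1a and Pds5a, by 8 for H3K27ac (52.0%), all but Smc1a and Rad21, and by 3 for H3K27me3 (38.5%), Smc3, Stag1 and Nipbl. ATAC peaks were fewer per length in these windows, start peaks included. Per 100 kb, the median gene of the 10 held 2.58 ATAC peaks after Sham, 3.54 after SNA, 3.30 after Lam and 3.30 after DCA, while the median over all genes, most of them with shorter windows, was 9.17, 10.9, 9.69 and 10.0.

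**Figure D2:**
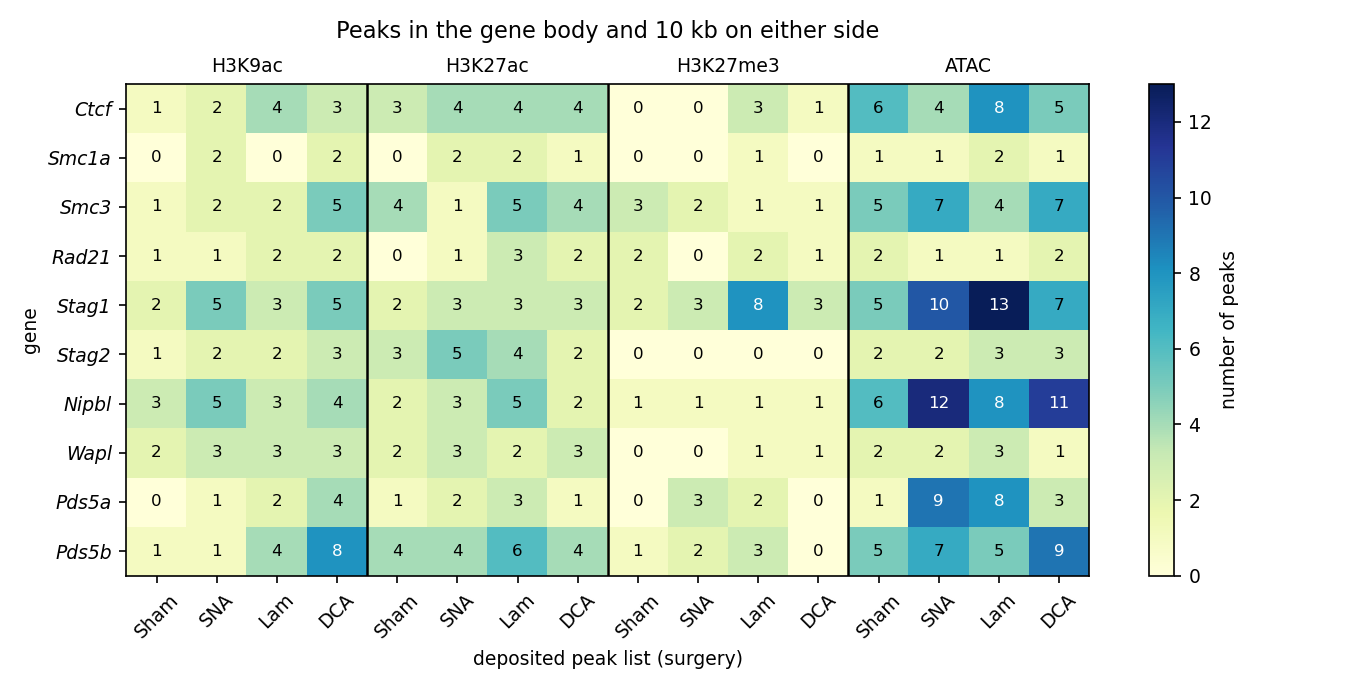
Number of deposited peaks in the body and 10 kb flanks of each gene (rows) in the 16 lists (columns, by assay and surgery); each cell prints its count. The Sham column has the lowest sum in H3K9ac, H3K27ac and ATAC, at 12, 21 and 35 peaks, and Stag2 is at 0 in all 4 H3K27me3 columns.

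For H3K9ac the 10 genes summed to 12 peaks after Sham, 24 after SNA, 25 after Lam and 39 after DCA. Counting a gene as different when its number of peaks plus 1 was at least 1.5 times that in the other list, 7 of 10 were higher in SNA than in Sham, where 37.0% of 14820 genes with a peak were, and 0 were lower, where 8.83% were. The 7 were Ctcf (1 peak in Sham and 2 in SNA), Smc1a (0 and 2), Smc3 (1 and 2), Stag1 (2 and 5), Stag2 (1 and 2), Nipbl (3 and 5) and Pds5a (0 and 1). Most of these rest on a single extra peak. DCA was higher than Lam in 5 of 10 (50.9% of all genes) and lower in 0 (6.47%), with Pds5b going from 4 to 8, Smc3 from 2 to 5, Stag1 from 3 to 5, Pds5a from 2 to 4 and Smc1a from 0 to 2. Lam was higher than Sham in 6 of the 9 genes with a peak in either (22.9%) and lower in 0 (21.2%).

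The pair of control lists thus differed at these genes too. With all 4 H3K9ac lists reduced to the size of the shortest, 2 genes were past the fold for SNA and Sham, 2 for DCA and Lam and 6 for Lam and Sham, and Pds5b had 1 peak fewer in DCA than in Lam. As shares, 66.7% of the H3K9ac peaks of the SNA and Sham lists together were from SNA (interval 50.3% to 79.8%), where the whole lists gave 59.7%, 60.9% of those of DCA and Lam were from DCA (48.7% to 71.9%, whole lists 63.9%), and 67.6% of those of Lam and Sham were from Lam (51.5% to 80.4%, whole lists 50.2%). The whole-list share lay inside the interval for both injuries and below it for the pair of controls.

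**Figure D3:**
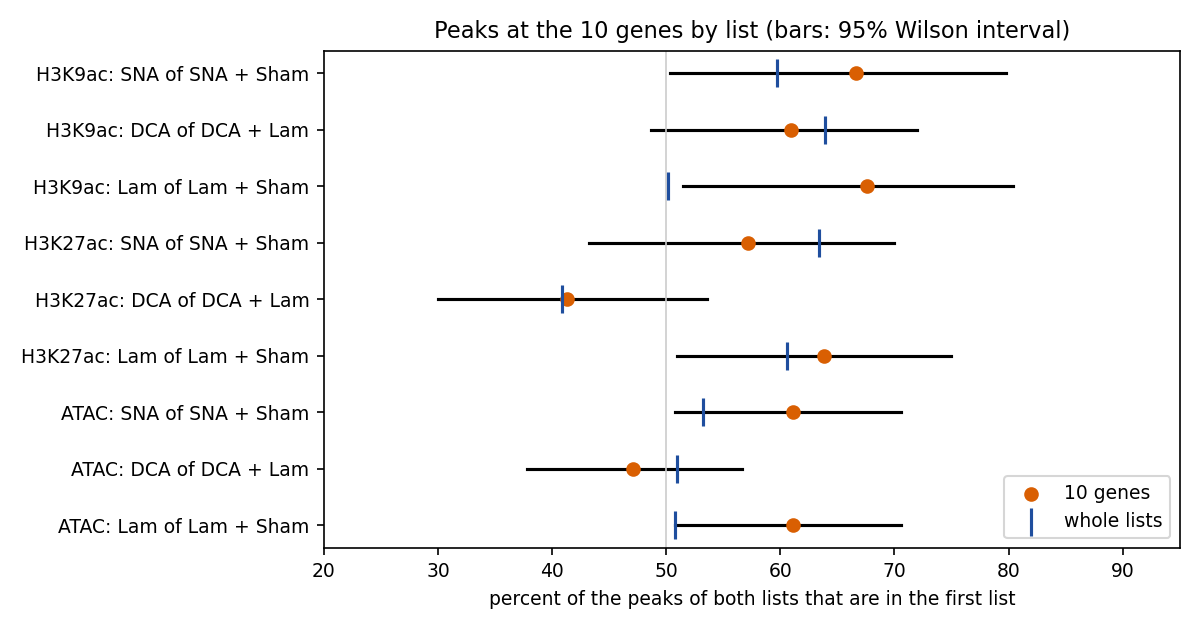
Share of the peaks of 2 lists at the 10 genes that come from the first list (orange points, percent, with 95% Wilson intervals) beside the same share over the whole lists (blue ticks), for 3 assays and 3 comparisons. The blue tick falls below the interval in the Lam and Sham rows of H3K9ac (50.2%) and, narrowly, of ATAC (50.7%).

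For H3K27ac the sums were 21 peaks after Sham, 28 after SNA, 37 after Lam and 26 after DCA, so the Lam list held the most. SNA was higher than Sham in 4 of 10 genes (49.7% of all genes), Smc1a, Rad21, Stag2 and Pds5a, and lower in 1 (13.3%), Smc3, which went from 4 peaks to 1. DCA was higher than Lam in 0 (10.1%) and lower in 4 (39.3%), Smc1a, Stag2, Nipbl and Pds5a. Lam was higher than Sham in 4 (44.0%), Smc1a, Rad21, Nipbl and Pds5a, and lower in 0 (10.9%). The shares, 57.1% for SNA, 41.3% for DCA and 63.8% for Lam over Sham, lay near the 63.4%, 40.9% and 60.6% of the whole lists. DCA and Lam, and Lam and Sham, share the Lam list, so its large number of peaks enters both.

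For ATAC the sums were 35 peaks after Sham, 55 after SNA, 55 after Lam and 49 after DCA. SNA was higher than Sham in 3 of 10 genes (24.6%): Pds5a went from 1 peak to 9, Nipbl from 6 to 12 and Stag1 from 5 to 10. It was lower in 1 (11.4%), Rad21, from 2 to 1. DCA was higher than Lam in 3 (17.5%), Smc3, Rad21 and Pds5b, and lower in 5 (15.1%), Ctcf, Smc1a, Stag1, Wapl and Pds5a. Lam was higher than Sham in 3 (20.6%), Smc1a, Stag1 and Pds5a, and lower in 1 (15.8%), Rad21. The share from SNA was 61.1% (50.8% to 70.5%) and that from Lam, against Sham, was also 61.1% with the same interval, where the whole lists gave 53.2% and 50.7%. Both share the Sham list, which was low at these genes. DCA took 47.1% of the DCA and Lam peaks (37.8% to 56.6%, whole lists 51.0%).

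At Pds5a and Stag1 the ATAC peaks behind those counts were weak ones away from the start. Of the 9 at Pds5a in SNA, the start peak had a −log10 p of 44.7 and the next strongest 9.47, and in Lam the start peak had 26.3 and the next strongest 9.05. Smc1a differed otherwise: its 2 peaks in Lam, with 14.0 and 2.48, both lay at the start, where each other list held 1. With peaks limited to a −log10 q of at least 5, 2 genes were past the fold between DCA and Lam in place of 8, and 2 between Lam and Sham in place of 4. The share of all genes past the fold among such peaks was not counted. Overlapping peaks of the 4 ATAC lists merged to 104 regions at the 10 genes. Of these 66 were in 1 list, 14 in 2, 7 in 3 and 17 in all 4, or 16.3% in all 4 (interval 10.5% to 24.6%) against 10.0% of regions in the whole lists. Of the 10 regions within 1 kb of a start, 9 were in all 4 lists, and of the other 94 regions 8 were. The largest −log10 p of a region had a median of 33.0 for those in all 4 lists and of 4.28 for those in 1.

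**Figure D4:**
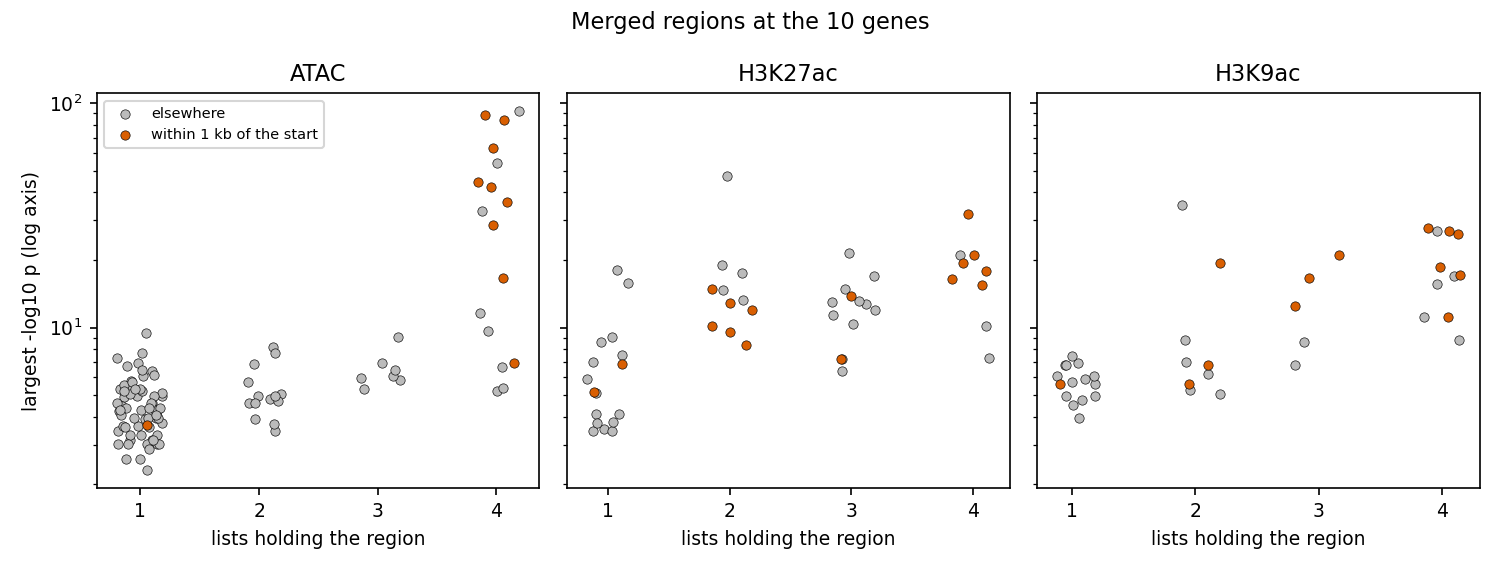
Largest −log10 p of each merged region at the 10 genes (y axis, log scale) against the number of lists that hold it (x axis, points spread sideways), for ATAC, H3K27ac and H3K9ac; orange marks regions within 1 kb of a gene start. In ATAC the regions in 1 list reach at most 9.47, and 9 of the 10 start regions are among those in all 4 lists.

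Peaks of an injury list without any overlapping peak in its control list were counted next. In SNA, 54.5% of the 55 ATAC peaks had no overlapping peak in Sham (interval 41.5% to 67.0%, whole list 59.6%), and in DCA 51.0% of 49 had none in Lam (37.5% to 64.4%, whole list 57.9%). For Lam against Sham it was 61.8% of 55 (48.6% to 73.5%, whole list 59.4%). In H3K9ac the shares were 45.8% of 24 in SNA, 46.2% of 39 in DCA and 48.0% of 25 in Lam against Sham, with whole lists at 49.5%, 61.8% and 40.8%. In H3K27ac they were 60.7% of 28, 15.4% of 26 and 54.1% of 37, with whole lists at 65.3%, 27.9% and 54.4%. Of the 9 whole-list shares 8 lay inside the interval of the 10 genes. The exception was H3K9ac in DCA, whose interval of 31.6% to 61.4% ended just under the 61.8% of the list. For the reverse, control or Sham peaks without an overlap in the other list, 7 of 9 whole-list shares lay inside. The others were H3K9ac peaks of Sham without Lam, 8.33% of 12 (1.49% to 35.4%, whole list 43.2%), and ATAC peaks of Sham without SNA, 34.3% of 35 (20.8% to 50.8%, whole list 53.8%).

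The acetylation lists were merged in the same way. H3K9ac peaks merged to 40 regions, 11 of them in all 4 lists (27.5%, interval 16.1% to 42.8%, whole lists 18.8%), and H3K27ac peaks to 50, 9 of them in all 4 (18.0%, 9.77% to 30.8%, whole lists 13.6%). Within 1 kb of a start, 6 of 13 H3K9ac regions and 6 of 16 H3K27ac regions were in all 4 lists, and away from starts 5 of 27 and 3 of 34. At Rad21 the acetylation overlapped the ATAC peak inside the gene. An H3K9ac region there at chr15:51991993-51992482 was in all 4 lists, with a −log10 p of 2.96 after Sham, 6.82 after SNA, 4.71 after Lam and 8.77 after DCA. A second one, at chr15:51990309-51991754, was in the Lam and DCA lists, with 11.8 and 35.3. H3K27ac at chr15:51991882-51992448 was absent after Sham and at 11.4 after SNA, 8.28 after Lam and 8.86 after DCA, and the strongest H3K27ac peak, 18.1 after Lam, lay wholly inside the ATAC peak of that list. Nipbl likewise had H3K27ac in all 4 lists at its inner ATAC peak, with 12.9 after Sham, 15.9 after SNA, 21.1 after Lam and 8.11 after DCA.

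Some H3K27ac regions, most of them far from a start, were held by the lists of Sham, Lam and DCA and not by that of SNA. There were 7 of them among the 50 regions (14.0%, interval 6.95% to 26.2%), where 5.50% of all H3K27ac regions had that pattern, and they were singled out after their values were seen. They lay at Smc3 (3 regions), Ctcf (2), Pds5a and Pds5b. In Ctcf the stronger lies 25.0 kb after the start, and its −log10 p was 15.8 in Sham, 16.1 in Lam and 16.9 in DCA, more than at the Ctcf start in the same 3 lists. In Smc3 a region 30.2 kb after the start had 10.9, 9.89 and 14.8 in that order, and one 54.1 kb after it, beyond the gene, 13.1, 8.28 and 12.4. In Pds5a, 55.1 kb after the start, the values were 21.5, 15.2 and 12.8, and in Pds5b, 46.4 kb after it, 12.9, 10.9 and 6.92. The SNA list had no peak overlapping any of these.

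Of the 7 regions, 4 had no ATAC peak in any list, or 8.0% of the 50 regions (interval 3.15% to 18.8%) against 3.59% of all regions. Among all regions of that pattern, 3705 of 5676 had no ATAC peak. Whatever the pattern, 15 of the 50 regions (30.0%) had no ATAC peak in any list, fewer than the 48.1% of all H3K27ac regions. The 8.0% thus does not show more H3K27ac without ATAC at these genes. The region 25.0 kb into Ctcf had an ATAC peak in the Sham list only, and that of Smc3 at 54.1 kb had one in all 4. Related regions were held by fewer lists. Inside Pds5b, 6.6 kb after the start, the strongest H3K27ac peak of any of the 10 genes had a −log10 p of 47.5 and a fold enrichment of 13.8 in Sham, at percentile 97.3, and 20.0 in DCA, and no peak in SNA or Lam. Wapl had one 41.3 kb after its start in Sham and DCA, at 16.7 and 19.1, and Stag2 one 100.4 kb inside its lower end in Sham only, at 15.8. None of these 3 had an ATAC or H3K9ac peak in any list. The SNA list of H3K27ac was the longest of the 4, with 75824 peaks, but its highest rank, 105645, was the lowest of the 4, against 114123 in Sham, 160148 in Lam and 130902 in DCA. The lists are thus parts of longer ranked lists, the rule of removal is not given in the sources used here, and its part in these regions was not tested.

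**Figure D5:**
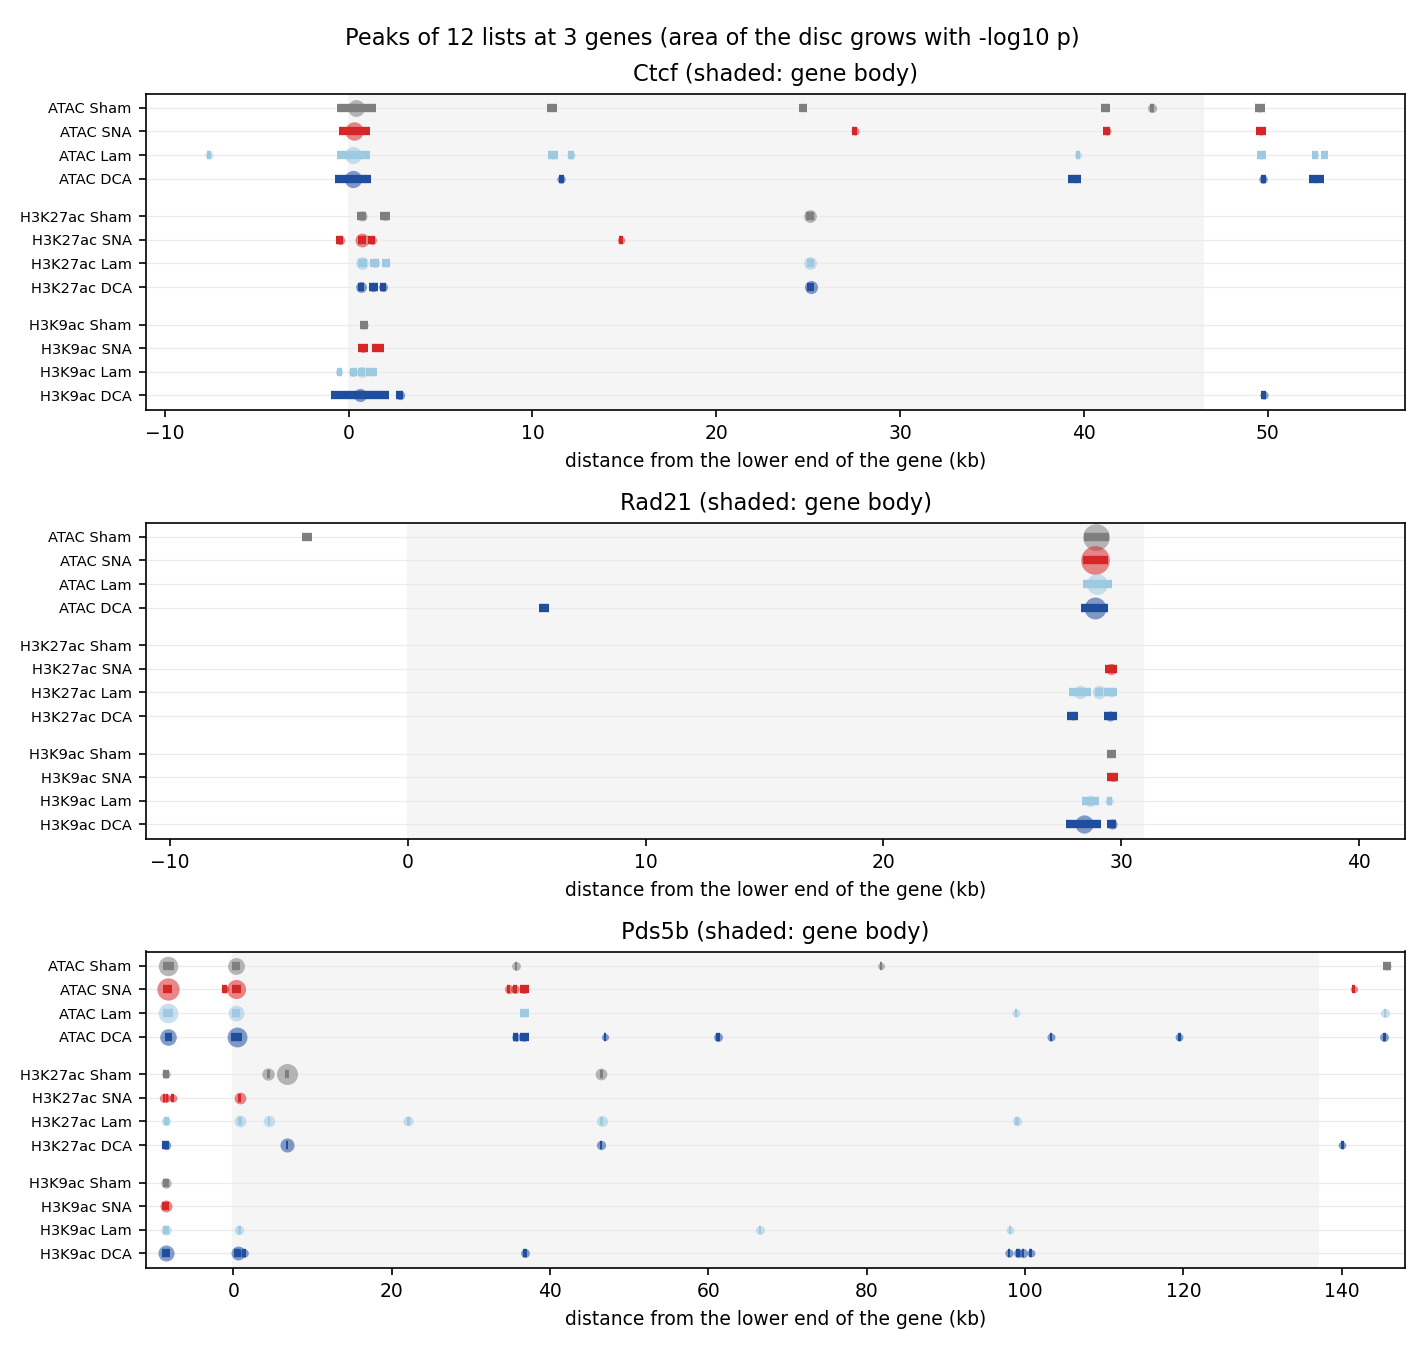
Positions of ATAC, H3K27ac and H3K9ac peaks (bars, with discs whose area grows with −log10 p) at Ctcf, Rad21 and Pds5b, in kb from the lower end of each gene (x axis), by list (y axis, coloured by surgery); the gene body is shaded. The ATAC peak near the start of Ctcf and Pds5b and inside Rad21 is in all 4 lists, and the H3K27ac regions about 25.0 kb into Ctcf and 46.4 kb into Pds5b are in the Sham, Lam and DCA rows and not in the SNA row.

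H3K27me3 was near its floor at these genes. No gene had a peak within 1 kb of a start in any of the 4 lists, where 22.2% of all genes had one after Sham, 16.9% after SNA, 25.1% after Lam and 8.46% after DCA, and 62.3% had none in any list. The windows held 9 peaks after Sham, 11 after SNA, 22 after Lam and 8 after DCA. Their −log10 p ran from 0.548 to 1.78, and 0 of the 50 reached a −log10 q of 1.3, as few peaks of the whole lists did, between 0.0478% and 1.31%. No region was in all 4 lists, and 35 of 41 were in 1. Among the 6 genes with a peak after SNA or Sham, 2 were higher after SNA, Pds5a and Pds5b (28.9% of all genes), and 1 was lower, Rad21 (33.3%). Of the 9 with a peak after DCA or Lam, 0 were higher after DCA (9.04%) and 6 lower (68.8%), and of the 9 after Lam or Sham, 6 were higher after Lam (43.8%) and 1 lower (17.9%). These peaks are calls at the limit of the lists, and Stag2 had none at all.

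Other genes of the pathway were read in the same way, from lists chosen by name. Of 13 genes of loading, acetylation and release, 12 had an ATAC start peak in all 4 lists, among them Mau2, the partner of NIPBL, and the acetyltransferase gene Esco1; Hdac8, the gene of the cohesin deacetylase, had none in any list. All 12 genes of condensin and the SMC5/6 complex and all 7 of other looping factors, such as Yy1, Ldb1 and Zfp143, had one. H3K9ac start peaks in all 4 lists were found for 7 of 13, 10 of 12 and 5 of 7 in that order, and H3K27ac ones for 4, 5 and 5. The 5 germ line paralogs, which replace the subunits in meiosis, differed in acetylation: 0 of 5 had an H3K27ac start peak in any list and 0 an H3K9ac one in all 4, although Smc1b, Stag3 and Ctcfl had an ATAC peak in all 4. Rad21l had an H3K27me3 start peak in all 4 lists, which 3.4% of all genes had, and no ATAC one in any.

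The counts by surgery in those lists varied as well. For H3K27ac, genes of condensin and SMC5/6 held 36 peaks after Sham, 84 after SNA, 60 after Lam and 39 after DCA, with 7 of the 11 with a peak higher in SNA than in Sham and 0 lower, and 0 of 12 higher and 7 lower in DCA than in Lam. Genes of loading, acetylation and release held 20, 32, 26 and 18, with 6 of 13 higher and 3 lower in SNA, and 1 of 12 higher and 6 lower in DCA. In ATAC, in the order Sham, SNA, Lam and DCA, the latter held 63, 86, 81 and 70 peaks and other looping factors 40, 58, 53 and 49, both with the fewest in Sham, as at the 10 genes. Condensin and SMC5/6 genes held 85, 89, 78 and 80, with the fewest in Lam, and germ line paralogs 24, 22, 29 and 29, with the fewest in SNA. The Sham list of ATAC was also the shortest whole list, with 153556 peaks. The H3K27ac counts stand beside 49.7% of all genes higher after SNA and 39.3% lower after DCA.

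The tissue was checked by its markers. Of 11 sensory neuron genes, 9 had an ATAC start peak in all 4 lists, including Tubb3, Prph, Isl1 and Calca, but only Tubb3 had H3K9ac there in all 4, and only Tubb3 and Ntrk2 had H3K27ac. Among genes of satellite glia and Schwann cells, Sox10, Apoe and Glul had ATAC, H3K9ac and H3K27ac at the start in all 4 lists. Of 5 macrophage genes 0 had H3K27ac at the start in any list. Of 6 genes of lineages not in the tissue, such as Alb, Krt5 and Myod1, 0 had H3K9ac or H3K27ac at the start in any list, while Myod1 and Myog had ATAC peaks in all 4. The part of each cell type in the peaks of the 10 genes was not tested.

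The genes whose counts over the 16 lists were most like those of Ctcf and of Rad21 were found by the Euclidean distance of log2(peaks + 1). For Ctcf these were Eif4h (1.57), Gm40193 (1.64), Tifa (1.69), Epo (1.69) and Farsa (1.70). For Rad21 they were Gm52217 (0.83), whose window overlaps that of Rad21 and shares its peaks, 4930524J08Rik (1.70), Rep15 (1.75), Mettl21c (1.84) and Gm52606 (1.88). No other of the 10 genes was close: the nearest to Ctcf was Pds5b at 2.82, rank 1124, and the nearest to Rad21 was Smc1a at 3.10, rank 776.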

How the data were processed

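Peaks of H3K9ac, H3K27ac and H3K27me3 ChIP-seq and of ATAC-seq were read from 16 lists, 1 per assay and surgery, in which the replicates of a condition are pooled, per the labels. The build is mm10, per the submitters' processing notes; the aligner and the peak caller are not given in the sources used here. The fold deposited for each peak is a ratio to background on a linear scale, and the deposited −log10 p and −log10 q are those of the authors' caller. They served to rank, filter and describe peaks inside 1 list at a time. The deposited integer score was not used. Peak names carry ranks above the number of lines, and the rule that left the others out is not given in the sources used here.

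ATAC lines that repeat an interval were counted once, with the values of their most significant summit. Peaks were assigned to RefSeq genes (GRCm38.p6) by any overlap with the body and 10 kb on either side, or with the 1 kb around a start; a start was known for 17491 of 21883 genes, and for the other 4392 both ends were used. Motifs were searched in 250 bases before the start. Genes differed between lists when (peaks + 1) differed by 1.5 times or more; shares have 95% Wilson intervals. The background pile-up of a narrow list was estimated from its fold and −log10 p values by a scan in steps of 0.002 reads, as the level that fitted the most peaks. Depth per sample is unknown, since the lists hold no read totals. Python 3.11.15, pandas 2.3.3, NumPy 2.4.6, SciPy 1.17.1 and matplotlib 3.10.9 were used, and the counting was tested on simulated data.

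All 10 genes were named; the strongest peak near each start, the 5 genes of most similar counts, and single peaks absent from a comparison list were chosen by rule, and others are said to be chosen after their values were seen. The 10 genes, although the rule is by name alone, and the lists were chosen with earlier results of these data known. Alternatives were filters on −log10 q, equal list sizes, uncollapsed lines, other windows, another fold or pseudocount, reciprocal overlap and leaving out each gene. Inputs were not analysed here. The counts over the glial marker list are not reported here.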

Additional observations from a re-analysis of the deposited data

Results flagged for a closer look

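Some genes differed in opposite directions between the 2 injuries and their controls, by the rule of 1.5 times on peaks plus 1. The difference between the injuries was not tested, since each list pools its replicates, and each value is a count of peaks after injury less the count after its control operation.

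In H3K27ac, Smc1a had 2 peaks more in SNA than in Sham and a difference of -1 for DCA minus Lam, Stag2 had 2 and -2, and Pds5a had 1 and -2. In ATAC, Stag1 had 5 and -6, Pds5a had 8 and -5, and Rad21 had -1 and 1. In H3K27me3, Pds5a had 3 and -2 and Pds5b had 1 and -3, all among peaks whose −log10 q was at most 0.166. The share of all genes with such opposite differences was not counted, so they are not shown to be particular to these genes. In H3K27ac, 49.7% of all genes with a peak were higher after SNA than after Sham, and 13.3% were lower. For DCA and Lam, 39.3% were lower after DCA and 10.1% were higher. The Lam list held 37 H3K27ac peaks at the 10 genes, the most of the 4, and 55 ATAC peaks, as many as SNA; the Stag1 and Pds5a differences in ATAC are between weak peaks away from the start.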

How the results depend on the processing

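No paired analysis was possible because each list pools the replicates of its condition, and for the same reason no replicate could be left out. Depth is unknown, the lists are parts of longer lists, and counts per gene are small, so 1 peak can carry a gene past the fold. Of 303 values recomputed under the alternatives, for counts and shares over the 10 genes, 268 stayed within 1.5 times or within the interval and 35 moved. The 268 include 9 shares for each gene left out, all inside their wide intervals, so the total says little on its own. The alternatives were not run over all genes, so their counts have no share of all genes beside them. At a −log10 q of at least 5, 11 moved and 20 stayed, and at a fold of at least 2, 8 moved and 1 stayed. Only the equal list sizes, the filters and the windows have a known construction (fewer peaks, or other peaks, counted); otherwise the cause was not tested. Leaving out each gene in turn moved the share from the first list between 64.7% and 67.9% for H3K9ac in SNA, 59.6% and 63.2% in DCA and 65.6% and 71.0% in Lam over Sham, between 55.3% and 61.4%, 39.7% and 42.9% and 61.8% and 65.3% for H3K27ac, and between 57.5% and 63.8%, 44.4% and 50.0% and 58.0% and 63.0% for ATAC.

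Genes with a start peak in all 4 lists went from 5 to 0 for H3K9ac at a −log10 q of at least 5, and from 5 to 0 for both acetylation marks when the peak had to cover the start. At a −log10 q of at least 5, the share of H3K9ac peaks was 80.0% from SNA (5 peaks) and 90.9% from Lam over Sham (11 peaks), with 75.0% and 90.0% of their peaks unmatched, and ATAC peaks were unmatched in 31.2% for SNA, 15.4% for DCA and 14.3% for Lam over Sham. Uncollapsed ATAC lines gave 37.9%, 30.5% and 44.3% unmatched in that order. Unmatched H3K9ac peaks were 23.1% in DCA with equal list sizes, and with reciprocal overlap of 50% 66.7% in DCA and 68.0% in Lam over Sham.

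Genes past the fold, in either direction, were as follows. At a −log10 q of at least 1.3, ATAC gave 4 for DCA and Lam in place of 8. At 5, it was 3 in place of 7 for H3K9ac in SNA, 2 for ATAC in DCA and 2 in Lam over Sham. Equal list sizes gave 2 for H3K9ac in SNA, 2 in DCA and 2 for H3K27ac in Lam over Sham. The gene body alone gave 5 for ATAC in DCA, and 50 kb flanks gave 2 in SNA, 3 in DCA and 2 in Lam over Sham. A fold of at least 2 gave 3, 2 and 3 for H3K9ac in SNA, DCA and Lam over Sham, 3 and 2 for H3K27ac in SNA and DCA, and 1, 2 and 2 for ATAC. The pseudocount of 0.5 moved no count past 1.5 times.

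Differences of single genes past the fold kept their direction in 229 recomputed values, vanished in 47 and were reversed in 6. Of those that vanished, 23 did so at a −log10 q of at least 5 and 10 with equal list sizes. The 6 reversals follow. With equal list sizes DCA minus Lam was -1 for Pds5b in H3K9ac and 1 for Smc1a in H3K27ac. With uncollapsed lines Smc1a in ATAC gave 2 for DCA minus Lam and -2 for Lam minus Sham. With 50 kb flanks Smc3 in H3K9ac gave -1 for Lam minus Sham and Rad21 in ATAC -1 for DCA minus Lam.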
